A study of Homo sapiens with 6 samples.

Results

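The genes described here encode the enzymes that add methyl groups to histone lysines, the demethylases that take them off and the acetyltransferases that add acetyl groups, together with core subunits of the Polycomb complex PRC2. They were chosen by symbol from the protein-coding rows of the deposited table: every KMT, KDM, KAT or SETD name followed by a digit, and EZH1, EZH2, EED, SUZ12, EHMT1, EHMT2, SUV39H1, SUV39H2, SETDB1, SETDB2, DOT1L, NSD1, NSD3, EP300, CREBBP and HAT1. This gave 61 of 58735 genes, of which 54 reached a mean of at least 1 FPKM (a unit that counts fragments per kilobase of exon, scaled to the size of the library) and were tested.

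RNA sequencing was carried out in MM.1S, an established human multiple myeloma cell line, after silencing of PRMT1. PRMT1 is the main arginine methyltransferase of human cells. The 3 Control libraries came from MM.1S cells given a non-targeting siRNA (si-NC), and the 3 PRMT1 KD libraries from the same line given an siRNA against PRMT1, at 100 nM with collection at 72 h. Both groups are therefore transfected cells of 1 line, and in such bulk RNA a change in some of the cells and a smaller change in all of them cannot be told apart. The study calls its replicates dependent biological replicates and neither it nor the labels say that libraries came from separate cultures, so p-values measure the spread between these libraries, which may be technical.

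Lysine methylation of histones is written by enzymes that mostly carry a SET domain, and each position has its own meaning: H3K4 methylation marks promoters and enhancers, H3K36 and H3K79 methylation mark transcribed bodies, and H3K9 and H3K27 methylation mark repressed chromatin. LSD-type and Jumonji-type demethylases erase these marks, while the GNAT and MYST families and the pair EP300 and CREBBP write acetylation, a mark of active regions. In myeloma the H3K27 writer EZH2 and the H3K27 demethylase KDM6A are among the best studied of these genes.

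The study lists 3 siRNAs against PRMT1, and the sources used here do not say which one was used for sequencing. They are shown because the knockdown rests on them. Each line gives the target on the PRMT1 transcript, 5′ to 3′, with capitals at positions 12 to 18, counted from the 5′ end, which pair with the seed of the guide strand.
First siRNA (si-PRMT1-1): gcaactccatgTTTCATAa
Next siRNA (si-PRMT1-2): agacggtgttcTACATGGa
Last siRNA (si-PRMT1-3): ccatcgacctgGACTTCAa
Each of the 19-base targets was found whole in PRMT1 transcripts of GENCODE release 29 (15, 6 and 6 transcripts), and in no transcript of a tested member on either strand. The 7 capital letters of si-PRMT1-1 were present in an annotated 3′ untranslated region of 14 of the 54 tested members (25.9%), against 22.8% of the 10051 protein-coding genes tested that have one annotated. For si-PRMT1-2 the counts were 6 members (11.1%) and 10.1% of genes, and for si-PRMT1-3 they were 10 members (18.5%) and 14% of genes. The called members KMT2A and KMT2C held the letters of si-PRMT1-1, and SETD5 and SETD7 those of si-PRMT1-3. A letter match describes the sequence and shows no pairing. The median log2 fold change of members with and without the letters was 0.07 and 0.08 for si-PRMT1-1, 0.09 and 0.08 for si-PRMT1-2, and 0.06 and 0.09 for si-PRMT1-3. Over all the protein-coding genes tested with an annotated region, the medians with and without the letters were 0.06 and 3.9e-06 for si-PRMT1-1, 0.033 and 0.0113 for si-PRMT1-2, and 0.023 and 0.0113 for si-PRMT1-3, and the difference was not tested.

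The libraries held between 14439217 and 16465026 reads on genes. PRMT1, the targeted gene, stood at 61.7, 62.8 and 58.9 FPKM in Control and 13.3, 14.0 and 12.5 FPKM in PRMT1 KD. It fell by 2.13 on the log2 scale (limma adjusted p = 2.77e-05), to 21.7% of the Control mean. Fold changes here are differences of log2(FPKM + 1), PRMT1 KD minus Control, and p-values are from limma's moderated test with Benjamini-Hochberg adjustment over all 13585 genes tested. Of these genes, 279 (2.05%) had an adjusted p under 0.05, 145 of them higher in PRMT1 KD (1.07%). All 9 plasma cell markers examined were detected, with sums of 1329 to 1409 FPKM in Control and 1314 to 1487 FPKM in PRMT1 KD. Within this list SLAMF7, a surface protein of plasma cells, fell by 0.65 on the log2 scale (limma adjusted p = 0.00515), to 62.7% of Control, and PRDM1 and XBP1, regulators of plasma cell identity, were lower without overlap, while CD38 (127.8% of Control) and MZB1 (108.1%) were higher without overlap. None of these 4 passed the test. B cell, monocyte, erythroid and stromal markers summed to at most 3.10, 0.709 and 0.237 FPKM a library for the respective lists, and the T and NK cell list summed to 37.3 to 43.2 FPKM, most of it CD3E, while the T cell marker CD2 did not exceed 0.0369 FPKM.

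Among the 54 tested members, 4 rose and none fell: SETD7, KMT2C, SETD5 and KMT2A. This is 7.41% of the members, beside 2.05% of all genes tested in either direction and 1.07% in the upward direction. At an unadjusted limma p under 0.05 there were 17 members (31.5%, against 19.5% of all genes), of which 15 were higher (27.8%, against 10.1%) and 2 lower (3.70%, against 9.47%). All libraries of PRMT1 KD lay above all Control libraries in 17 members, a separation seen in 13.6% of all genes, and below them in 3 members, against 12.3% of all genes. Fold changes were above 0 in 39 members and below 0 in 15, with a median of 0.08 against 0.01 over all genes tested. The methyltransferase group held all 4 calls, with 22 of its 27 tested genes higher. No call was made among 16 demethylases, 11 of them higher, or 11 acetyltransferases, 6 of them higher. The shares higher were 81.5% of methyltransferases, 68.8% of demethylases and 54.5% of acetyltransferases. Beside them stood 52.6% of all genes tested and 66.2% of genes at least as long as the median member. Whether these 3 classes differ was not tested.

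**Figure D1:**
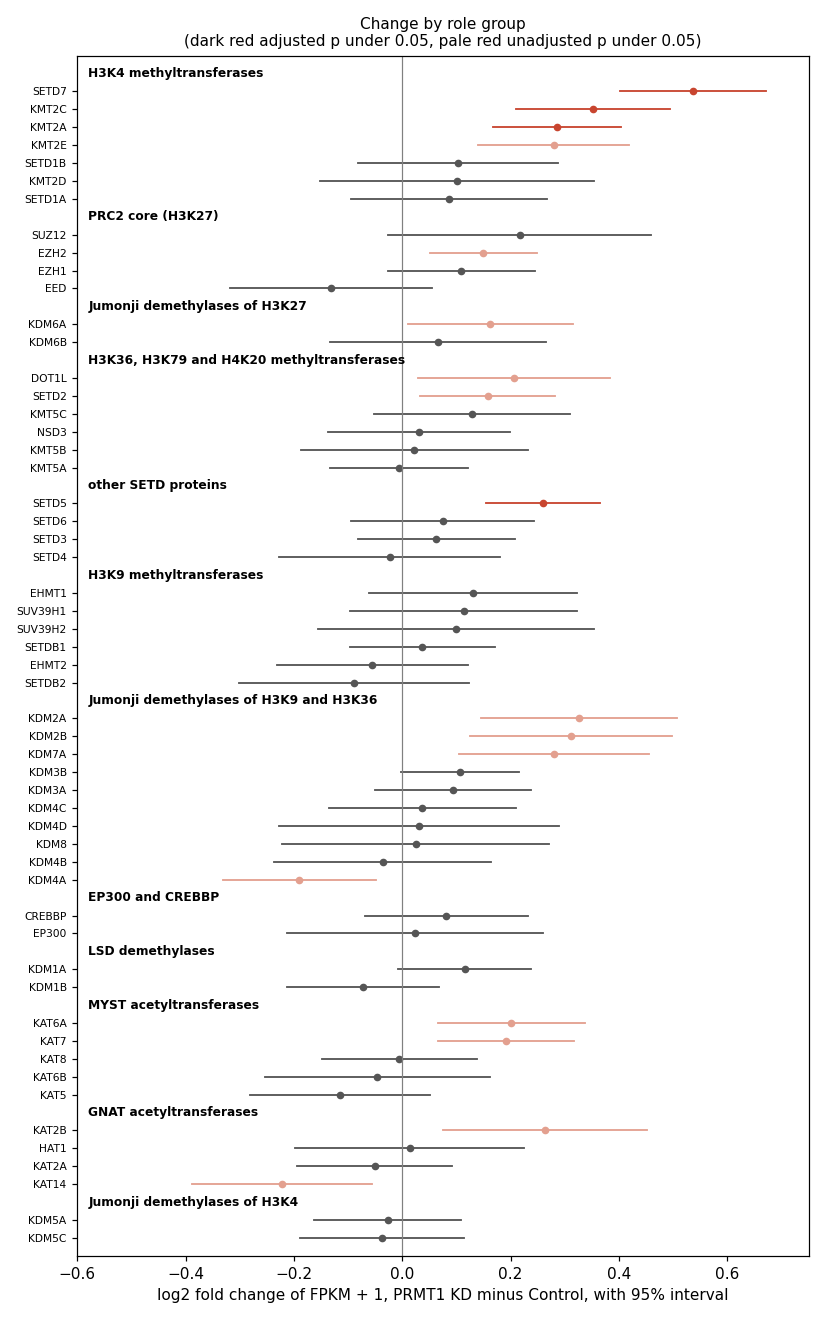
Log2 fold change of FPKM + 1 (horizontal axis, PRMT1 KD minus Control) for the 54 tested members by role group, as points with 95% limma intervals over 3 libraries a group. SETD7, KMT2C, KMT2A and SETD5 carry dark red symbols (adjusted p under 0.05), and all 7 H3K4 methyltransferases lie to the right of 0.

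The H3K4 methyltransferases were the group with the highest median. All 7 tested members were higher in PRMT1 KD, the median log2 fold change was 0.28, and SETD7, KMT2C and KMT2A rose. Their summed level was 74.3, 73.7 and 70.0 FPKM in Control and 90.2, 86.6 and 81.7 FPKM in PRMT1 KD, with no overlap between the groups. SETD7, a monomethylase of H3K4 and of many non-histone proteins, was at 5.83, 6.34 and 5.99 FPKM in Control and 9.64, 9.02 and 9.03 FPKM in PRMT1 KD. The lowest knockdown library was well above the highest Control library. SETD7 (ENSG00000145391; hg38 chr4:139495941-139606699, minus strand) rose by 0.54 (SE 0.06, limma adjusted p = 0.0154), to 153% of the Control mean.

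KMT2C, the catalytic subunit of a complex that monomethylates H3K4 at enhancers, measured 8.50, 8.34 and 8.83 FPKM in Control and 11.9, 10.5 and 11.3 FPKM in PRMT1 KD. KMT2C (ENSG00000055609; hg38 chr7:152134922-152436005, minus strand) rose by 0.35 (SE 0.06, limma adjusted p = 0.0443). KMT2A, the MLL protein of leukaemia translocations and an H3K4 methyltransferase of promoters, was at 8.74, 8.61 and 8.31 FPKM in Control and 11, 10.5 and 10.5 FPKM in PRMT1 KD. The Control libraries of both genes lay close together and below every knockdown library. KMT2A (ENSG00000118058; hg38 chr11:118436464-118526832, plus strand) rose by 0.29 (SE 0.05, limma adjusted p = 0.0460). Of its exonic bases, 18.9% are shared with AP001267.3 on the opposite strand or AP001267.5 on the same strand, and whether counting used strand is not given in the sources used here.

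KMT2E, a relative of KMT2A that binds methylated H3K4 and has little activity of its own, was at 11.4, 10.7 and 11.5 FPKM in Control and 13.4, 13.3 and 14.7 FPKM in PRMT1 KD. The groups did not overlap, but the adjusted p of 0.0663 (limma; log2 fold change 0.28) missed the threshold, which KMT2E passed with a filter at a mean of 5 FPKM and with voom, a count-based limma fit, on reads recovered from FPKM. KMT2D, the partner of KMT2C in enhancer methylation, had means of 13.2 ± 1.23 FPKM (SD, n = 3) and 14.3 ± 1.88 FPKM, and a log2 fold change of 0.10, which ran from 0.027 without Control replicate 3 to 0.21 without PRMT1 KD replicate 3. SETD1A and SETD1B, the catalytic subunits of the SET1 complexes, had log2 fold changes of 0.09 and 0.10 with overlapping libraries. KMT2B was listed at 0 in all 6 libraries, which does not show that the gene is silent, since cells generally use it. The deposited values are whole reads, so 0 means that no read was assigned to the gene, and why was not tested.

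SETD5, a SET domain protein whose own methyltransferase activity is debated, was the called member outside the H3K4 group. It was at 24.7, 24.9 and 23.3 FPKM in Control and 29, 29.4 and 29.4 FPKM in PRMT1 KD, which made it the most abundant of the 4. The knockdown libraries spanned a narrower range than the Control libraries and lay above them. SETD5 (ENSG00000168137; hg38 chr3:9397615-9479240, plus strand) rose by 0.26 (SE 0.04, limma adjusted p = 0.0443). The other tested SETD proteins, which methylate mainly non-histone substrates such as actin (SETD3), had log2 fold changes of 0.06 (SETD3), -0.02 (SETD4) and 0.07 (SETD6), all with overlapping libraries. SETD9 was not tested, with at most 0.333 FPKM.

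With 1 library left out, the fold changes of these genes stayed positive but the calls did not hold. SETD7 had an adjusted p (limma) of 0.0473 without Control replicate 3, and of 0.102, 0.0657, 0.0604, 0.0801 and 0.0519 without Control replicates 1 and 2 and PRMT1 KD replicates 1, 2 and 3. Whichever of the 6 libraries was left out, KMT2C, SETD5 and KMT2A passed in none of these fits, with adjusted p from 0.0774 to 0.173, from 0.0774 to 0.170 and from 0.0866 to 0.170. The count of members called was 1 without Control replicate 3 and 0 without any other library. With the replicate number as a block, SETD7 kept its call (limma adjusted p = 0.0437). KMT2C, SETD5 and KMT2A then missed the threshold, at limma adjusted p of 0.0539, 0.0577 and 0.0551.

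**Figure D2:**
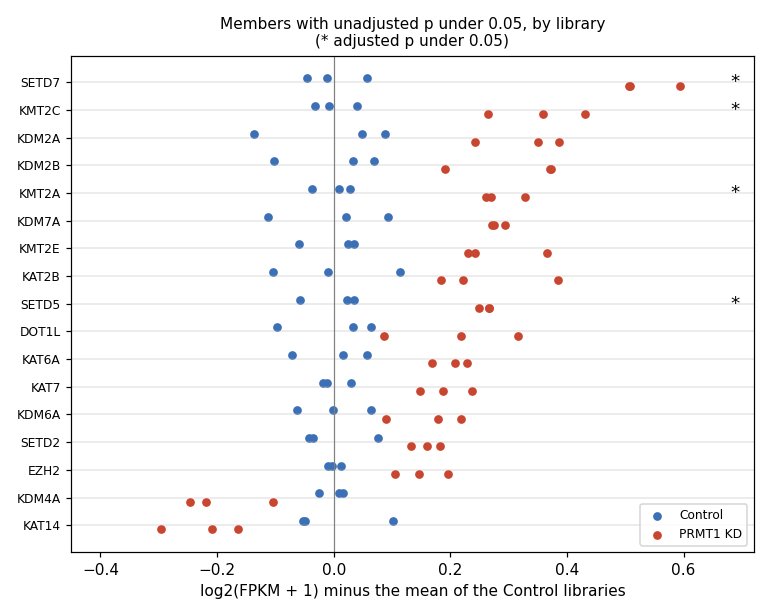
Log2(FPKM + 1) of each library minus the mean of the 3 Control libraries (horizontal axis), for the 17 members with an unadjusted limma p under 0.05, 1 point per library. In 15 members the red points (PRMT1 KD) lie above the blue points (Control), and in KDM4A and KAT14 below, with no overlap. Stars mark SETD7, KMT2C, KMT2A and SETD5.

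The promoters of the 4 genes that rose are shown so that their base composition can be compared. Each is the RefSeq window (GRCh38.p14) from 250 bases before to 50 after the start of transcription, printed 5′ to 3′ on the gene's strand. Capitals mark the GC box letters GGGCGG and the CCAAT box letters CCAAT, on either strand.
SETD7, chr4:139556170-139556469, minus strand: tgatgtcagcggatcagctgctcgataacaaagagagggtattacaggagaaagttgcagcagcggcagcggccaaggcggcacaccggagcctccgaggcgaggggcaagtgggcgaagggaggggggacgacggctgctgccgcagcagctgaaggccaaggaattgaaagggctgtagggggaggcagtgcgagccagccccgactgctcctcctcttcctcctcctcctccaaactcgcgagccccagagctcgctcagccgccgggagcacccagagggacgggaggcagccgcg
KMT2C, chr7:152435954-152436253, minus strand: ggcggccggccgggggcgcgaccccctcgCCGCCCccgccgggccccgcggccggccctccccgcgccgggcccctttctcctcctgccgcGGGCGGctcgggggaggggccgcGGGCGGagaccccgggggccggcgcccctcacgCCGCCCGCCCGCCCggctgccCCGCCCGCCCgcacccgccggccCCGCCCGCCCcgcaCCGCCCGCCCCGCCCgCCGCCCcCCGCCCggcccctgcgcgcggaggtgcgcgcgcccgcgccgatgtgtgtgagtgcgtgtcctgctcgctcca
SETD5, chr3:9397365-9397664, plus strand: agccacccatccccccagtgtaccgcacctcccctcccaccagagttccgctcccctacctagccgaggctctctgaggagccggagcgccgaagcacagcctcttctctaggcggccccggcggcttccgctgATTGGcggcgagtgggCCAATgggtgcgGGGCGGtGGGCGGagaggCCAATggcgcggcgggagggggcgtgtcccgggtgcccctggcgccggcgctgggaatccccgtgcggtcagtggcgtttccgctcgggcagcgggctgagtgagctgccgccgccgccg
KMT2A, chr11:118436242-118436541, plus strand: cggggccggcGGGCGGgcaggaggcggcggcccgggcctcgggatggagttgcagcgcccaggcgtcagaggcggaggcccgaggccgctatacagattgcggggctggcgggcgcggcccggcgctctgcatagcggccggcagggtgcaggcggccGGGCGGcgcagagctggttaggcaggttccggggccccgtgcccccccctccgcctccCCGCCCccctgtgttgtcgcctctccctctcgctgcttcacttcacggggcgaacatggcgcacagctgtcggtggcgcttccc
The SETD7 window starts inside the span that the deposited table gives for the gene, so it belongs to an inner start. KMT2C had 15 GC box matches, overlapping ones included, KMT2A 3 and SETD5 2, while SETD7 had none. SETD5 alone held CCAAT letters, 3 times. The G and C content was 66% in SETD7, 88.7% in KMT2C, 73.7% in SETD5 and 76.3% in KMT2A, against a median of 67.3% over the windows of tested members and 58.7% over all 35116 RefSeq windows.

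Windows on chromosome 8 were left out of this comparison, for the members and for the set of all windows. NSD3 and KAT6A, which lie on that chromosome, were therefore not matched. Outside it, RefSeq windows were found for 49 of the 54 tested members (67 windows, since some genes have several starts). GGGCGG on either strand was present in 50 of these windows (74.6%), against 45% of all windows, and CCAAT in 24 (35.8%), against 34.6%. The E-box letters CACGTG were in 10 windows (14.9% against 7.26%), and the cyclic AMP response letters TGACGTCA in 1 (1.49% against 1.85%). None of the member windows held TATAAA on either strand, which 11.5% of all windows did. The median member window held 30 CG dinucleotides and the median of all windows 14. These are letter matches, and binding was not measured.

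The PRC2 core had a median of 0.13, and none of its 4 genes passed the adjusted threshold. EZH2, the main H3K27 methyltransferase, was the most abundant of all members. Its level was 46.2, 46.4 and 46.9 FPKM in Control and 51.6, 50.1 and 53.5 FPKM in PRMT1 KD, without overlap (log2 fold change 0.15, limma adjusted p = 0.120). Its less active relative EZH1 measured 8.0 ± 0.118 FPKM (SD, n = 3) in Control and 8.71 ± 0.506 FPKM in PRMT1 KD, and the scaffold subunit SUZ12 18.1 ± 2.45 and 21.1 ± 1.90 FPKM. EED, which binds the finished H3K27 mark, was the lower one, at 7.97 ± 0.482 and 7.20 ± 0.713 FPKM. The pseudogene SUZ12P1 was listed at 4.30 to 5.41 FPKM and EZH2P1 at up to 0.624 FPKM, so some reads of SUZ12 and EZH2 may be shared with copies.

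In the group of H3K36, H3K79 and H4K20 methyltransferases 5 of 6 tested genes were higher, with a median of 0.08. SETD2, which trimethylates H3K36, was at 12.3, 12.4 and 13.5 FPKM in Control and 14.6, 14.0 and 14.3 FPKM in PRMT1 KD (log2 fold change 0.16, limma adjusted p = 0.165). DOT1L, the H3K79 methyltransferase, was at 16.4, 16.8 and 14.9 FPKM in Control and 20.2, 18.8 and 17.1 FPKM in PRMT1 KD (log2 fold change 0.21, limma adjusted p = 0.194). The groups did not overlap for either gene, although the highest Control and lowest knockdown values of DOT1L were close. PLEKHJ1 and AC004490.1 on the opposite strand share 11.5% of the DOT1L exonic bases. NSD3, an H3K36 methyltransferase, and the H4K20 methyltransferases KMT5A, KMT5B and KMT5C had log2 fold changes of 0.03, -0.01, 0.02 and 0.13, with overlapping libraries. NSD1 was listed at no more than 0.0195 FPKM, 2 to 5 reads a library, with the same doubt as for KMT2B, and its exons overlap those of PRMT1P1, a pseudogene of the silenced gene, over 3.01% of their bases on the opposite strand.

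The H3K9 methyltransferases showed no member past either threshold. SETDB1 and SETDB2 had Control means of 26.5 ± 1.26 and 23.0 ± 2.56 FPKM (SD, n = 3), the highest of the group, and log2 fold changes of 0.04 and -0.09. EHMT1 and EHMT2, which form 1 enzyme as a heterodimer, had log2 fold changes of 0.13 and -0.06. SUV39H1 and SUV39H2, the enzymes of constitutive heterochromatin, had 0.11 and 0.10. The 6 genes together summed to 81.7 ± 0.912 FPKM in Control and 82.0 ± 1.67 FPKM in PRMT1 KD.

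Among the demethylases, the Jumonji enzymes of H3K9 and H3K36 were the most numerous, with 8 of 10 tested genes higher and a median of 0.07. This median was 0.037 without a filter and 0.0998 with a filter at a mean of 5 FPKM. KDM2A and KDM2B, H3K36 demethylases that bind unmethylated CpG islands, had the largest fold changes of the group. KDM2A was at 9.42, 9.15 and 7.92 FPKM in Control and 11.8, 11.5 and 10.6 FPKM in PRMT1 KD (log2 fold change 0.33, limma adjusted p = 0.0847), and passed the threshold in the same 2 alternative settings as KMT2E. KDM2B was at 5.25, 5.41 and 4.69 FPKM in Control and 6.89, 6.91 and 5.97 FPKM in PRMT1 KD (log2 fold change 0.31, limma adjusted p = 0.0995). In both genes replicate 3 was the lowest of its group, and the groups stayed apart. KDM7A, a demethylase of H3K9 and H3K27, was at 3.50, 3.10 and 3.73 FPKM in Control and 4.37, 4.36 and 4.44 FPKM in PRMT1 KD (log2 fold change 0.28, limma adjusted p = 0.107).

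KDM4A, which removes methyl groups from H3K9 and H3K36, was lower in the knockdown. Its libraries were at 7.34, 7.11 and 7.30 FPKM in Control and 6.09, 6.67 and 5.95 FPKM in PRMT1 KD (log2 fold change -0.19, limma adjusted p = 0.147). Of its exonic bases, 48.5% are shared with AL451062.3 on the same strand or KDM4A-AS1 on the opposite strand. Its relatives KDM4B, KDM4C and KDM4D had log2 fold changes of -0.04, 0.04 and 0.03. KDM3A and KDM3B, H3K9 demethylases, had 0.09 and 0.11, and the Jumonji protein KDM8 0.02. The libraries of KDM3B did not overlap, at 19.7 ± 0.625 and 21.2 ± 0.414 FPKM (SD, n = 3). KDM4E was listed at no more than 0.0258 FPKM and KDM4F at 0.

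The H3K4 demethylases KDM5A and KDM5C had log2 fold changes of -0.03 and -0.04, with overlapping libraries, and summed to 30.7 ± 1.62 FPKM (SD, n = 3) in Control and 29.9 ± 1.34 FPKM in PRMT1 KD. The genes grouped as H3K4 methyltransferases, KMT2E included, lay above 0 in each of 7 cases and the tested Jumonji erasers below 0 in both (KDM5C turned to 0.0072 without PRMT1 KD replicate 3), and whether the groups differ was not tested. KDM5B was listed at 0 in all 6 libraries, with the same doubt as for KMT2B, and no level is given for the Y-linked KDM5D. KDM1A (LSD1), an H3K4 demethylase and the second most abundant member, was at 32.9, 35.8 and 34.4 FPKM in Control and 35.7, 38.6 and 37.6 FPKM in PRMT1 KD. The libraries overlapped (log2 fold change 0.11, limma adjusted p = 0.280). Its relative KDM1B had a log2 fold change of -0.07.

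Of the H3K27 demethylases, KDM6A was at 5.35, 5.64 and 5.94 FPKM in Control and 6.07, 6.72 and 6.52 FPKM in PRMT1 KD. The groups lay side by side without overlap (log2 fold change 0.16, limma adjusted p = 0.229). KDM6B, its inducible relative, had means of 9.79 ± 0.761 and 10.3 ± 0.992 FPKM (SD, n = 3), with overlap.

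The acetyltransferases were split in direction, with medians of -0.02 for the GNAT family, -0.01 for the MYST family and 0.05 for EP300 and CREBBP. Rescaling to TPM turned the GNAT and MYST medians to 0.00065 and 0.013. With 1 library left out the medians ran from -0.044 to 0.014 (GNAT), from -0.042 to 0.035 (MYST) and from -0.0058 to 0.11 (EP300 and CREBBP), so none had a stable direction. KAT2A (GCN5), the third most abundant member, was at 28.2, 28.9 and 29.2 FPKM in Control and 29.8, 27.8 and 25.7 FPKM in PRMT1 KD, with overlap (log2 fold change -0.05, limma adjusted p = 0.687). Its relative KAT2B (PCAF) was at 12, 11.1 and 13.1 FPKM in Control and 14.2, 13.8 and 16.0 FPKM in PRMT1 KD (log2 fold change 0.26, limma adjusted p = 0.135). Both acetylate H3K9 within SAGA-type complexes, and KAT2B was the one without overlap. KAT14, a subunit of the ATAC complex, was at 6.85, 6.07 and 6.05 FPKM in Control and 5.53, 5.33 and 4.96 FPKM in PRMT1 KD (log2 fold change -0.22, limma adjusted p = 0.148). It had the largest negative fold change of the 54 members, and PET117 on the same strand shares 16.7% of its exonic bases. HAT1, which acetylates newly made H4, had a log2 fold change of 0.01.

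In the MYST family, KAT7 (HBO1), an acetyltransferase of H3K14, was at 6.73, 6.95 and 6.69 FPKM in Control and 7.63, 8.18 and 7.87 FPKM in PRMT1 KD (log2 fold change 0.19, limma adjusted p = 0.117). KAT6A (MOZ), which acetylates H3K23, was at 6.90, 6.68 and 6.23 FPKM in Control and 7.77, 7.90 and 7.54 FPKM in PRMT1 KD (log2 fold change 0.20, limma adjusted p = 0.124). Every knockdown library of both genes exceeded every Control library. KAT6B, the relative of KAT6A, was the member with the lowest mean among those tested, at 1.76 ± 0.0313 and 1.67 ± 0.0568 FPKM (SD, n = 3). KAT8, which acetylates H4K16, had a log2 fold change of -0.01. KAT5 (TIP60) was lower without overlap, at 6.28 ± 0.379 and 5.73 ± 0.391 FPKM (log2 fold change -0.12), and RNASEH2C on the opposite strand shares 38.6% of its exonic bases. The broad coactivators EP300 and CREBBP had log2 fold changes of 0.02 and 0.08, with overlap in both.

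**Figure D3:**
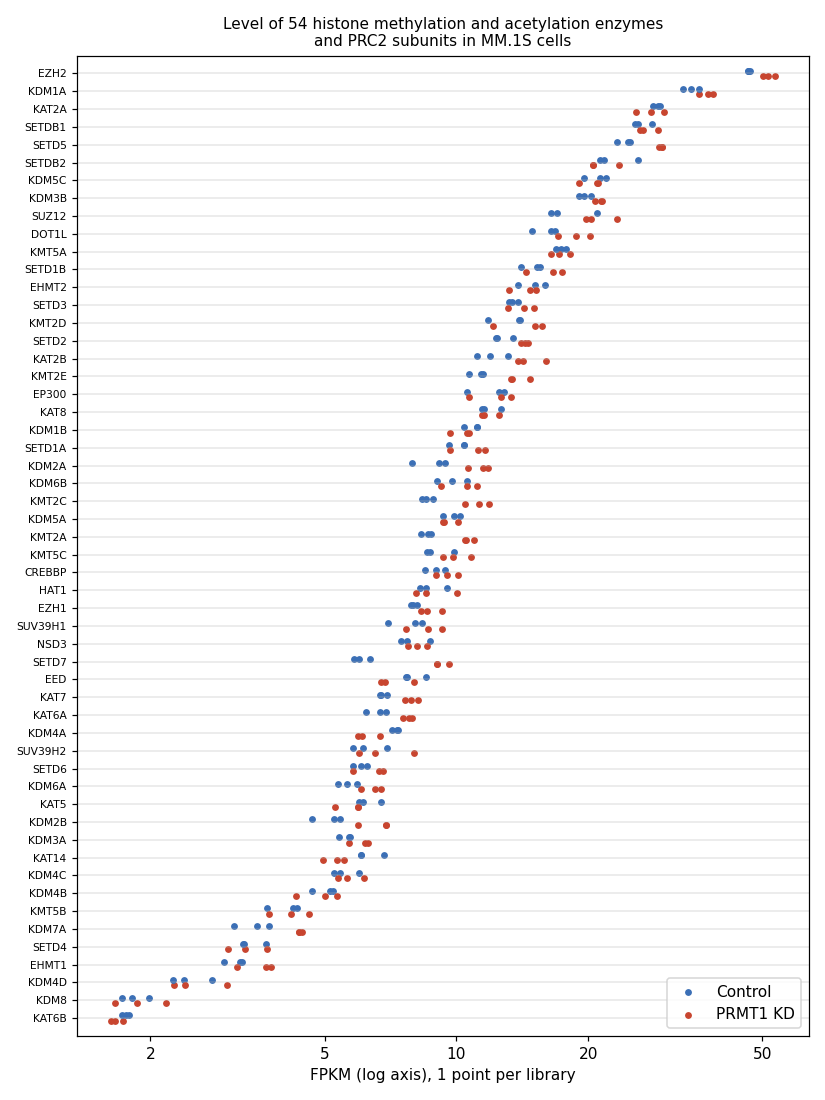
FPKM of the 54 tested members in each library (horizontal log axis), ordered by mean level, with 3 blue points for Control and 3 red points for PRMT1 KD. Levels run from KAT6B, near 1.7 FPKM, to EZH2, near 49.1 FPKM.

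Related enzymes were also compared within each library as the log2 ratio of FPKM + 1 of one to FPKM + 1 of the other. The added 1 draws ratios of low genes towards 0, and with a pseudocount of 0.1 the difference for EHMT1 to EHMT2 was 0.22. Of 19 pairs of relatives listed, 16 had both genes tested. In 5 pairs the log2 ratios of the groups did not overlap: EHMT1 to EHMT2 (0.19 higher in PRMT1 KD), KDM1A to KDM1B (0.19 higher), KAT6A to KAT6B (0.25 higher), KDM4A to KDM4B (0.15 lower) and KAT2A to KAT2B (0.31 lower). Among single genes, such a separation was seen in 13.6% of all genes tested upward and in 12.3% downward. The share among ratios of other gene pairs was not worked out, so the count of 5 is only a description. For KDM1A to KDM1B the log2 ratio of FPKM + 1 was 1.57, 1.60 and 1.54 in Control and 1.78, 1.76 and 1.73 in PRMT1 KD. Each of the 5 gave an exact two-sided permutation p of 0.1, the smallest that 3 libraries against 3 allow, and a Benjamini-Hochberg value of 0.32 over the 16 pairs, so none can pass a threshold of 0.05 in this design. The ratio of KMT2C to KMT2D was 0.25 higher with overlap (exact permutation p = 0.2). With 1 library left out, the difference ran from -0.20 to -0.085 for KDM4A to KDM4B (smallest without PRMT1 KD replicate 1), from -0.39 to -0.20 for KAT2A to KAT2B and from 0.14 to 0.34 for KMT2C to KMT2D (both smallest without PRMT1 KD replicate 3).

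Members are long genes, with a median exonic length of 7300.5 bases against 3975 over all genes tested, and fold changes moved with length. Across all 13585 genes Spearman's correlation of exonic length with log2 fold change was 0.15, across the 10107 protein-coding genes among them 0.23, and across the 54 members 0.36, and genes measured in the same libraries are not independent replicates. Of the 2714 genes at least as long as the median member, 66.2% were higher in PRMT1 KD, beside 72.2% of the members, and their median fold change was 0.05 beside 0.08. An unadjusted p under 0.05 in the upward direction was reached by 14.8% of these long genes and 27.8% of the members, and an adjusted p under 0.05 by 1.81% and 7.41%. All PRMT1 KD libraries lay above all Control libraries in 22.6% of the long genes and 31.5% of the members. They lay below all Control libraries in 8.55% and 5.56%. After removal of the trend with length from each library, chosen after seeing the data, SETD7 remained called (log2 fold change 0.48, limma adjusted p = 0.0217), while KMT2C, SETD5 and KMT2A had log2 fold changes of 0.28, 0.21 and 0.21 with adjusted p of 0.0602, 0.0774 and 0.102. The median of the H3K4 methyltransferases was then 0.21 and that of all members 0.05.

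**Figure D4:**
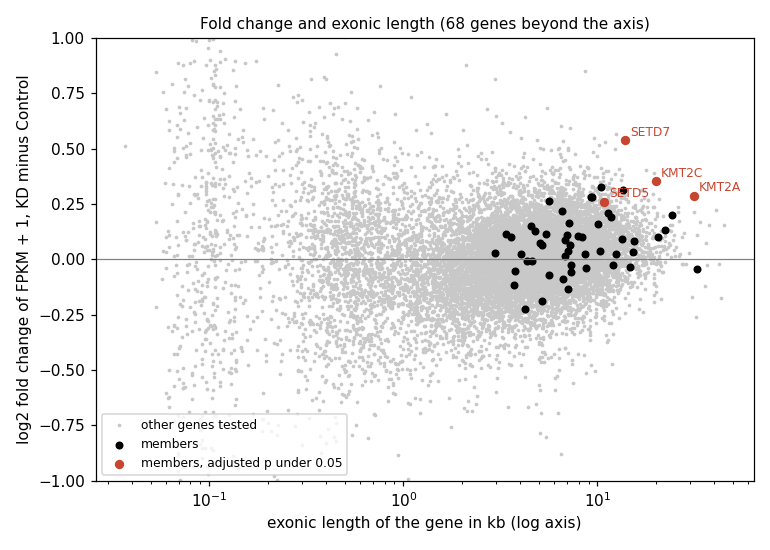
Log2 fold change of FPKM + 1 (vertical axis, PRMT1 KD minus Control) against exonic length in kb (horizontal log axis) for all genes tested (grey) and the members (black, or red with an adjusted p under 0.05). Long genes lie more often above 0 than short ones, and SETD7 lies above most genes of its length; 68 genes are beyond the vertical axis.

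The partners of these enzymes were read from lists of complex subunits, and 1 of their 114 tested genes passed the adjusted threshold (0.877%, against 2.05% of all genes tested). GSE1, a protein of the LSD1 and CoREST complex, was at 13.7, 12.9 and 12.3 FPKM in Control and 17.9, 17.5 and 16.1 FPKM in PRMT1 KD. It rose by 0.38 (SE 0.06, limma adjusted p = 0.0404), and was not called with any 1 library left out. By list, the LSD1 complex subunits, GSE1 included, had 6 of 8 tested genes higher (median 0.10), the DOT1L complex subunits 5 of 6 (median 0.12), the partners and readers of H3K9 methylation 8 of 12 (median 0.09), the subunits of COMPASS and COMPASS-related complexes 8 of 12 (median 0.02), the accessory subunits of PRC2 4 of 8 (median -0.00095), the subunits of acetyltransferase complexes 25 of 41 (median 0.03), the histone deacetylases 8 of 13 (median 0.02) and other lysine methylation enzymes 9 of 14 (median 0.04). Over all genes tested 52.6% were higher, with a median of 0.01. The COMPASS median was -0.00067 after median scaling, and that of the PRC2 accessory subunits 0.02 after rescaling to TPM.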

How the data were processed

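The authors deposited 1 table of FPKM values per gene for 6 libraries, with exonic lengths and coordinates on hg38. The submitters' processing notes name featureCounts 1.5.0-p3; the aligner is not given in the sources used here. In each library the deposited FPKM multiplied by length gave whole multiples of 1 step for 100% of values (tolerance 0.01 reads), which gave the reads per library; the step was not the same fraction of those reads in each, so the values carry a scaling between libraries. All 61 members had the coordinates and exonic lengths of GENCODE release 29, used for overlaps between genes; besides those given in the text, KAT2A, SETDB1, SUV39H1, KDM8 and SETD6 share 10.7% to 21.4% of their exonic bases with other genes. No column was left unmapped.

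Differences were tested with limma 3.58.1 in R 4.3.3 on log2(FPKM + 1) with a mean-variance trend, two-sided, over genes with a mean of at least 1 FPKM, with Benjamini-Hochberg adjustment, 3 libraries against 3. Genes were called at an adjusted p under 0.05. The fit was tested on simulated data. The members, role groups and lists of partners were chosen with earlier results of these data known, and lists were described by counts and medians only. Every tested member was named, with values for each library where the unadjusted p was under 0.05 or the level was among the 3 highest, and partners were named where called. Alternatives covered the pseudocount, filter, scaling, variance model, replicate block, recovered reads, threshold, length trend and each library left out.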

Additional observations from a re-analysis of the deposited data

How the results depend on the processing

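SETD7 kept its call under the pseudocount of 0.1, no filter, a mean of at least 5 FPKM, rescaling to TPM, median scaling, a variance model without trend, quantile normalization, the replicate block, voom on reads recovered from FPKM and removal of the length trend, and lost it in the ordinary linear model (adjusted p = 0.0628) and in 5 of 6 fits with 1 library left out. KMT2C kept its call in 6 of these settings, and SETD5 and KMT2A in 5, always positive. PRMT1 was called lower in every setting run. The self-test made calls at this sample size. The least covered tested member value rests on 97 reads, and what counting error adds was not tested. The cause was not tested for any change below, and in some settings a different set of genes or fewer libraries entered the fit.

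Without a filter 35 genes were called (15 higher, 20 lower) with 1 member and 0 partners, and the medians were 0.031 for the H3K36, H3K79 and H4K20 methyltransferases and 0.059 for LSD1 complex subunits. With a mean of at least 5 FPKM 473 genes were called (252 higher, 221 lower) with 6 members (KDM2A and KMT2E besides the 4) and 3 partners, and the medians were 0.13 for the H3K36, H3K79 and H4K20 group, 0.093 for MYST acetyltransferases, 0.061 for H3K9 partners and 0.082 for DOT1L complex subunits. Median scaling left 90 genes higher and 2 members called, with medians of 0.061 (H3K36, H3K79 and H4K20) and 0.10 (DOT1L complex) and HAT1 at -0.0045. Quantile normalization gave 0.064 for the H3K36, H3K79 and H4K20 group and HAT1 at -0.0049. Rescaling to TPM gave 222 genes higher, 2 partners, and medians of 0.11 (members), 0.31 (H3K4 methyltransferases), 0.10 (H3K36, H3K79 and H4K20) and 0.16 (DOT1L complex), with KMT5A at 0.013 and KAT8 at 0.0134. Over all genes tested the median was 0.029 after this rescaling and -0.0088 after median scaling. With a pseudocount of 0.1 the DOT1L complex median was 0.14 and the EHMT1 to EHMT2 difference 0.22. Without the variance trend 43 genes were called (15 higher, 28 lower) with 1 member and 0 partners, and in the ordinary linear model 12 (7 higher, 5 lower) with 0 members and 0 partners. At an unadjusted p under 0.05 the model with trend gave 2655 genes (1368 higher, 1287 lower), 17 members (15 higher, 2 lower) and 25 partners. Voom called 927 genes (526 higher, 401 lower), 10 members, all higher (KAT2B, KAT6A, KDM2A, KDM2B, KDM7A and KMT2E besides the 4), and 10 partners, with a DOT1L complex median of 0.14. With the length trend removed, 1 member and 0 partners were called, and the medians were 0.0498 (members), 0.21 (H3K4), 0.0487 (H3K36, H3K79 and H4K20), 0.0065 (other lysine methylation enzymes), 0.062 (H3K9 partners), 0.053 (LSD1 complex), 0.077 (DOT1L complex) and -0.012 (deacetylases), with EP300 at -0.032, HAT1 at -0.016, NSD3 at -0.031, KDM4C at -0.0119 and KMT5B at -0.0196. Over all alternatives run, the lowest log2 fold change was -0.128 for KAT6B, 0.036 for KDM3A and 0.059 for EHMT1. It was 0.019 for CREBBP, 0.068 for KDM3B and 0.127 for KAT6A.

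The replicate block called 204 genes (105 higher, 99 lower) and 1 member, SETD7. Deviations of same-numbered libraries correlated by 0.02, 0.0631 and 0.101 over all genes tested, and each library correlated best with its own number. The main fit did not treat the numbers as pairs. Replicate 3 was the lowest of both groups in some members, such as KMT2D (11.8 FPKM in Control, 12.1 FPKM in PRMT1 KD). In others it was the highest of both, such as SUZ12 (20.9 and 23.3 FPKM).

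With 1 library left out, 13 to 95 genes were called (4 to 45 higher, 9 to 50 lower), 0 to 1 members and 0 partners. Medians ran from 0.063 to 0.11 (members), 0.24 to 0.30 (H3K4), 0.069 to 0.11 (H3K36, H3K79 and H4K20), 0.026 to 0.084 (H3K9), -0.021 to 0.032 (COMPASS), 0.095 to 0.14 (DOT1L complex), 0.058 to 0.11 (H3K9 partners), -0.0115 to 0.041 (deacetylases), 0.0399 to 0.15 (LSD1 complex), -0.044 to 0.014 (GNAT), -0.042 to 0.035 (MYST), -0.0058 to 0.11 (EP300 and CREBBP), 0.0049 to 0.047 (acetyltransferase complexes), 0.0091 to 0.047 (other lysine methylation enzymes), both lowest without Control replicate 3, -0.0098 to 0.056 (LSD demethylases) and -0.058 to 0.038 (PRC2 accessory subunits). Besides KMT2D, member fold changes that moved by over 1.5 times without turning were those of SETDB2 (-0.15 to -0.0038), KDM5A (-0.059 to -0.00065), KDM6B (0.013 to 0.14), SETD3 (0.019 to 0.11), SETD6 (0.036 to 0.14), SETD1A (0.037 to 0.16), SETD1B (0.051 to 0.18), SUV39H1 (0.045 to 0.18), KMT5C (0.075 to 0.19), CREBBP (0.043 to 0.12), EZH1 (0.068 to 0.14), EED (-0.20 to -0.088), KAT5 (-0.14 to -0.066) and KDM1B (-0.10 to -0.032). Direction turned for EHMT2 (-0.11 to 0.00074), EP300 (-0.057 to 0.11), HAT1 (-0.068 to 0.073), KAT2A (-0.10 to 0.0021), KAT8 (-0.044 to 0.035), KDM4B (-0.091 to 0.037), KDM4C (-0.0081 to 0.084), KDM4D (-0.058 to 0.091), KDM5C (-0.084 to 0.0072), KDM8 (-0.042 to 0.084), KMT5A (-0.044 to 0.027), KMT5B (-0.036 to 0.085), NSD3 (-0.0083 to 0.089), SETD4 (-0.084 to 0.0299), SETDB1 (-0.0029 to 0.074) and SUV39H2 (-0.0048 to 0.18).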
